A study of Mus musculus with 4 samples.

Results

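The inflammatory monocyte genes Ly6c2, Plac8, F13a1, Vcan, Fcnb, Thbd, F10 and Ly6a, known as markers of recently recruited monocytes, were examined in RNA sequencing counts of sorted tumor-associated macrophages (TAMs). The 8 genes were taken by symbol from the 54146 genes of the count table, matched by Ensembl identifier to GENCODE M21. The TAMs were live CD11b+ F4/80+ cells, sorted by FACS after enrichment of CD45+ cells from subcutaneous MCA205 tumors, a mouse fibrosarcoma line, in C57BL/6 mice. All mice were females of 8 to 16 weeks that received MCA205 cells in the flank. The 2 libraries of the propranolol group came from mice that drank water with 0.5 g/L propranolol, a blocker of beta-adrenergic receptors, from the day of inoculation, and the 2 libraries of the control group, labelled vehicle, from mice without it. Each library was made from 400 ng of RNA with poly-dT enrichment. The study describes the libraries as biological replicates, but neither it nor the labels say whether a library is 1 mouse or a pool, and p-values measure the spread between these libraries.

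Inflammatory monocytes, which carry high levels of the surface protein Ly6C in the mouse, leave the bone marrow through the chemokine receptor CCR2, enter inflamed tissue and tumors, and lose Ly6C as they mature into macrophages. Non-classical monocytes carry little Ly6C, patrol vessels and depend on the nuclear receptor Nr4a1. The members are of 3 kinds. Ly6c2 and Ly6a encode small GPI-anchored surface proteins of the Ly6 family (Ly6C and Sca-1), and Plac8 encodes a small cysteine-rich protein of myeloid cells. F10 encodes the zymogen of coagulation factor X, F13a1 the subunit of factor XIII that crosslinks fibrin, and Thbd thrombomodulin, the surface receptor through which thrombin activates protein C. Vcan encodes versican, a large proteoglycan that binds hyaluronan, and Fcnb encodes ficolin B, a secreted lectin of the complement system.

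Replicates 1 and 2 held 13798249 and 23018142 counts in the control group and 39818103 and 16424081 counts in the propranolol group. Levels of 1 gene across libraries are given as CPM, its counts divided by the library size after TMM scaling (edgeR's correction for composition). Levels of different genes are compared as TPM, which also divides by exon length and makes each library sum to the same total. A call required more than a 1.5-fold change together with an adjusted p under 0.05 from the edgeR quasi-likelihood test. A fit that leaves out a library keeps only 1 library in that group. The spread in such a fit comes from the other group alone, so its adjusted p-values and calls are descriptive. Of the 8 genes, 7 passed the filter on low counts, among 14688 genes tested, and Fcnb did not. Differences between the groups could come from the share of monocytes among the sorted cells or from the RNA per cell, which bulk libraries cannot tell apart.

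Of the 7 tested genes, 4 were higher after propranolol (F10, Plac8, Thbd and F13a1), 0 were lower (also at an unadjusted p under 0.05 and by DESeq2), and 3 were not called (Ly6c2, Vcan and Ly6a). Across all tested genes, 27.8% were called changed, 12.2% higher and 15.6% lower. The same 4 members had both propranolol libraries above both control libraries, an arrangement found for 35.8% of the tested genes. No member had both below, as 36.9% of the tested genes did, and in all 72.6% of them had groups that did not overlap. The median log2 fold change was 0.62 for the 7 members and −0.02 for all tested genes. F10 moved most, at 2.79-fold, whereas Ly6c2, whose product defines the monocyte class by flow cytometry, did not pass the test.

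**Figure D1:**
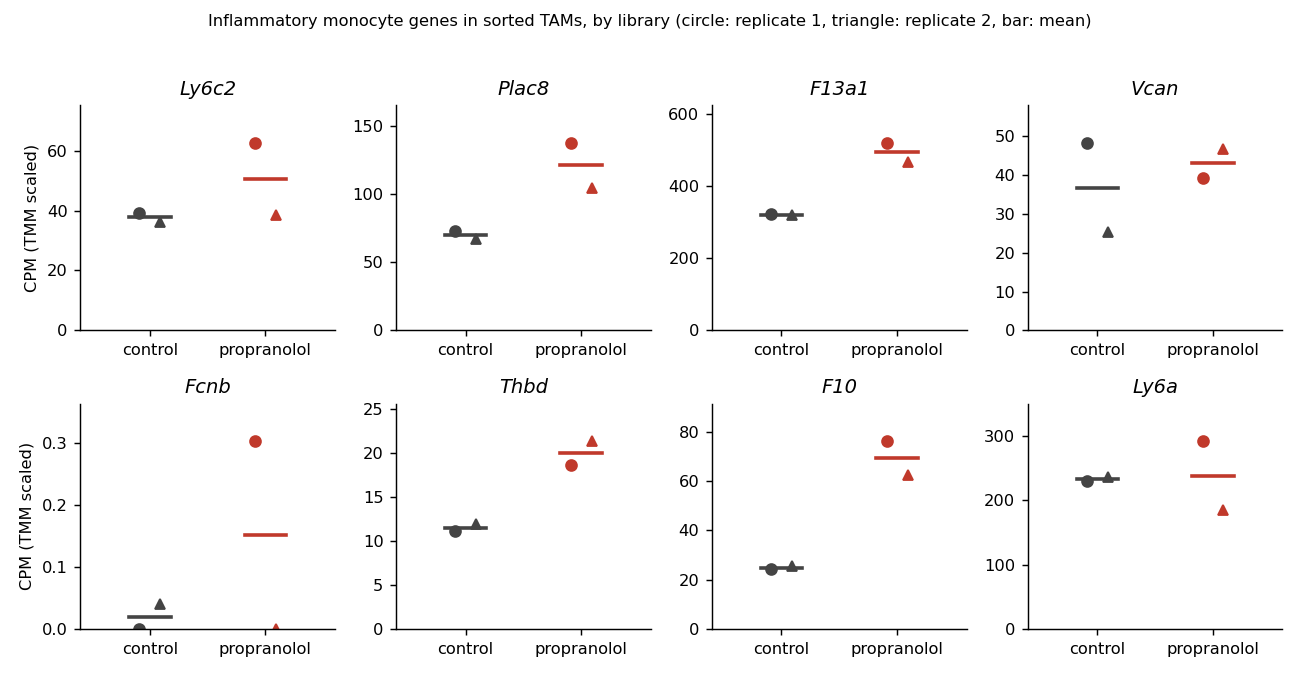
CPM of each of the 8 genes (vertical axes, each starting at 0) in the 2 control and 2 propranolol libraries, with circles for replicate 1, triangles for replicate 2 and bars for group means. For Plac8, F13a1, Thbd and F10 both propranolol libraries lie above both control libraries, and for Ly6c2, Ly6a and Fcnb only propranolol replicate 1 does.

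The promoter windows below belong to F10, Plac8 and F13a1, which were called higher together, and to Ly6c2, which was not, and are shown so that their letters can be compared. Each window runs from 250 bases before to 50 bases after the start site on GRCm38.p6, 5′ to 3′ along the gene. The windows lie at chr8:13037058-13037357 on the plus strand for F10 and, on the minus strand, at chr5:100572156-100572455 for Plac8, chr13:37050195-37050494 for F13a1 and chr15:75111922-75112221 for Ly6c2. Capitals mark matches to any of the motifs searched on both strands.
F10: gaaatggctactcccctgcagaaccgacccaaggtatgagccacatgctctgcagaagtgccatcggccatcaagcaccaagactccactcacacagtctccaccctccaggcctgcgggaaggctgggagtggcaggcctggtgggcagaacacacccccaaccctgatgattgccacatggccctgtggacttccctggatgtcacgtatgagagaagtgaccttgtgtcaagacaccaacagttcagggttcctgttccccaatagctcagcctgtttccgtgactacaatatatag
Plac8: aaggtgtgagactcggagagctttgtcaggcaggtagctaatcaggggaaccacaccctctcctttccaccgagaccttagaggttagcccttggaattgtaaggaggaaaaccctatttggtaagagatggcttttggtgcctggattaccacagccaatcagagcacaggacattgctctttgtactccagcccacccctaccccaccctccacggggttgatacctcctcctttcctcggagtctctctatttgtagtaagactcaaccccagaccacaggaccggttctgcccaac
F13a1: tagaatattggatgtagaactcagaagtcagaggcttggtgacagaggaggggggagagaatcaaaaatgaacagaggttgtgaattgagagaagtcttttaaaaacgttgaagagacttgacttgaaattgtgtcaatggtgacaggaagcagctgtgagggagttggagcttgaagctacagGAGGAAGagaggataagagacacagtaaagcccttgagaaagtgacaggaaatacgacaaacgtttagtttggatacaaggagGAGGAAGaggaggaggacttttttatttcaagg
Ly6c2: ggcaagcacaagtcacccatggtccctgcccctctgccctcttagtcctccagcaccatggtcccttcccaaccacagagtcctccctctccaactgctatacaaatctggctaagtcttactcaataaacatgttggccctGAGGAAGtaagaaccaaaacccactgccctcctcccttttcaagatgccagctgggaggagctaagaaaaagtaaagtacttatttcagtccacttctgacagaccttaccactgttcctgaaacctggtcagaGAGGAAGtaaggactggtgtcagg

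The motifs searched were the interferon response element (GAAA repeated after a gap of 2 bases), TTGCNNAA (bound by C/EBP proteins), GAGGAAG (bound by PU.1, an ETS factor of myeloid cells), TGACGTCA (cAMP response element) and its core TGACG, which overlaps it. RefSeq windows were listed for 6 of the 8 members. In the F13a1 window GAGGAAG stands at bases −66 to −60 and 17 to 23 from the start site, and in the Ly6c2 window at bases −108 to −102 and 26 to 32. Of 32851 mouse promoter windows of the same length, 13.6% hold GAGGAAG. No match to any of the motifs was found in the F10 window or in the Plac8 window shown, and the window of Vcan held none either. A second Plac8 window, whose start site lies 9149 bases from the gene start, holds TTGCNNAA at bases −12 to −5. The Fcnb window holds TTGCNNAA at −235 to −228 and −123 to −116. The share of all windows with TTGCNNAA is 10.8%. A second F13a1 window holds TGACG at −91 to −87, as 20.8% of all windows do, and GAGGAAG at 14 to 20. A second Ly6c2 window, which overlaps the first, holds GAGGAAG at −142 to −136 and −8 to −2. The whole cAMP response element (1.79% of windows) and the interferon response element (3.44%) matched no window of a member. A match describes the letters only, and says nothing of binding.

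F10 (ENSMUSG00000031444.16, chr8:13037308-13056676, plus strand) was measured at 24.3 and 25.6 CPM in the control libraries and at 76.2 and 62.6 CPM in the propranolol libraries. Both propranolol libraries stood far above both controls, and the replicates within a group lay within 1.22-fold of each other. The log2 fold change was 1.48 ± 0.13 (SE, 95% interval 1.18 to 1.77, adjusted p = 0.000103), rank 99 of the 14688 tested genes from the top. F10 was called higher in all 12 alternative fits, with log2 fold changes from 1.2 to 1.64. Within a library, the ratio of F10 to F13a1 in CPM was 0.0752 and 0.0801 in controls and 0.146 and 0.134 after propranolol, so the coagulation factors did not move in proportion.

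F13a1 (ENSMUSG00000039109.16, chr13:36867178-37050244, minus strand) had the highest counts of the 8 genes. Its level was 323 and 319 CPM in the control libraries and 520 and 468 CPM in the propranolol libraries. The groups did not overlap and the controls were nearly equal. Its log2 fold change of 0.62 ± 0.096 (SE, adjusted p = 0.000819) lay close to the fold threshold, and it fell under that threshold with upper-quartile factors (0.56) and without propranolol replicate 1 (0.55).

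Thbd (ENSMUSG00000074743.4, chr2:148404466-148408188, minus strand, a gene of a single exon) was measured at 11.1 and 12 CPM in controls and at 18.7 and 21.3 CPM after propranolol. Both propranolol libraries were higher, by 0.79 ± 0.16 on the log2 scale (SE, adjusted p = 0.00384). With a correction for GC content the difference was 0.56 (adjusted p = 0.0326), under the fold threshold. Thbd rests on few counts, 165 and 300 in controls and 679 and 326 after propranolol.

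Plac8 (ENSMUSG00000029322.12, chr5:100553725-100572245, minus strand) reached 73.1 and 67.1 CPM in controls and 137 and 104 CPM in the propranolol libraries. The groups did not overlap, and the propranolol libraries differed 1.32-fold from each other. The log2 fold change was 0.79 ± 0.14 (SE, adjusted p = 0.00137). Without propranolol replicate 1 it was 0.58, just under 1.5-fold.

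Ly6c2 (ENSMUSG00000022584.14, chr15:75108158-75111970, minus strand) was measured at 39.2 and 36.2 CPM in the control libraries and at 62.5 and 38.4 CPM in the propranolol libraries. Only propranolol replicate 1 was high, 1.63-fold above replicate 2, which lay between the controls, so the groups overlapped. The log2 fold change was 0.43 ± 0.19 (SE, 95% interval 0.00065 to 0.87), and the adjusted p was 0.0985. This value rests on 1 library, being 0.76 without propranolol replicate 2 and 0.03 without propranolol replicate 1. Per Plac8, Ly6c2 stood at 0.536 and 0.540 in controls and at 0.456 and 0.368 after propranolol, so the ratio of these monocyte genes was lower in both propranolol libraries.

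Ly6a (ENSMUSG00000075602.10, chr15:74994877-74998031, minus strand), which interferons induce in many cells, reached 230 and 236 CPM in controls and 292 and 185 CPM after propranolol. The propranolol libraries lay on either side of the controls. The log2 fold change was 0.04 ± 0.17 (SE, 95% interval −0.35 to 0.42, adjusted p = 0.890). Its direction hung on the propranolol library kept, at −0.33 without replicate 1 and 0.35 without replicate 2, neither past 1.5-fold. Upper-quartile factors gave −0.03.

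Ly6c2 and Ly6a share sequence with their neighbours on chromosome 15, and counts of such genes are uncertain where reads fit more than 1 of them. Of the 50-base stretches in Ly6c2 transcripts, 14% also occur in another Ly6 transcript, nearly all in Ly6c1, and the share was 17.7% for Ly6a. Plac8, Thbd, Vcan and Fcnb share none with any gene, F10 shares 1.81% and F13a1 0.404%. Ly6c1 itself, which with Ly6c2 encodes the Ly6C antigen, was measured at 2.16 and 1.2 CPM in controls and 0.660 and 1.44 CPM after propranolol. Of its 50-base stretches 32.8% occur in another Ly6 transcript, so this low level may be an undercount. Of the 20 genes of the Ly6 cluster, 17 were in the table and 7 were tested. None of the 7 was called changed in the edgeR test or by DESeq2, while the edgeR test called 27.8% of all tested genes. Among the 7, 1 (Ly6c2) had an unadjusted p under 0.05, and the median log2 fold change was 0.05. Ly6e, the most abundant, had 1294 and 1387 CPM in controls and 1580 and 1296 CPM after propranolol, with propranolol replicate 2 between the controls as for Ly6c2.

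Vcan (ENSMUSG00000021614.16, chr13:89655312-89742509, minus strand) was measured at 48.3 and 25.2 CPM in controls and at 39.3 and 46.8 CPM in the propranolol libraries. Here the controls differed 1.91-fold and enclosed both propranolol libraries. The log2 fold change was 0.24 ± 0.24 (SE, 95% interval −0.30 to 0.78, adjusted p = 0.461). Control replicate 1 decided it, since the value was 0.82 without that library and −0.15 without control replicate 2. Control replicate 1 also held the most RNA of fibroblast and sarcoma markers, whose 10 genes summed to 3276 CPM there, 1193 CPM in control replicate 2, and 676 and 728 CPM in the propranolol libraries. Col3a1, a fibrillar collagen, was the highest of these in CPM, and 8 of the 10 were called lower, against 15.6% of all tested genes. Without control replicate 1 the log2 fold change of Col3a1 went from −1.97 to −0.90. The part of these markers in the Vcan counts was not tested.

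Fcnb (ENSMUSG00000026835.15, chr2:28076378-28084885, minus strand) was near the limit of detection, with 0 and 1 counts in controls and 11 and 0 counts after propranolol. All 11 counts came from the deepest library, and a count of 0 allows up to 3 counts. The ratio of CPM over the groups was 8.5 with a counting interval of 1.24 to 366 (95%, counting error only). That interval compares these libraries and not the conditions, since 1 propranolol library held no count at all.

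**Figure D2:**
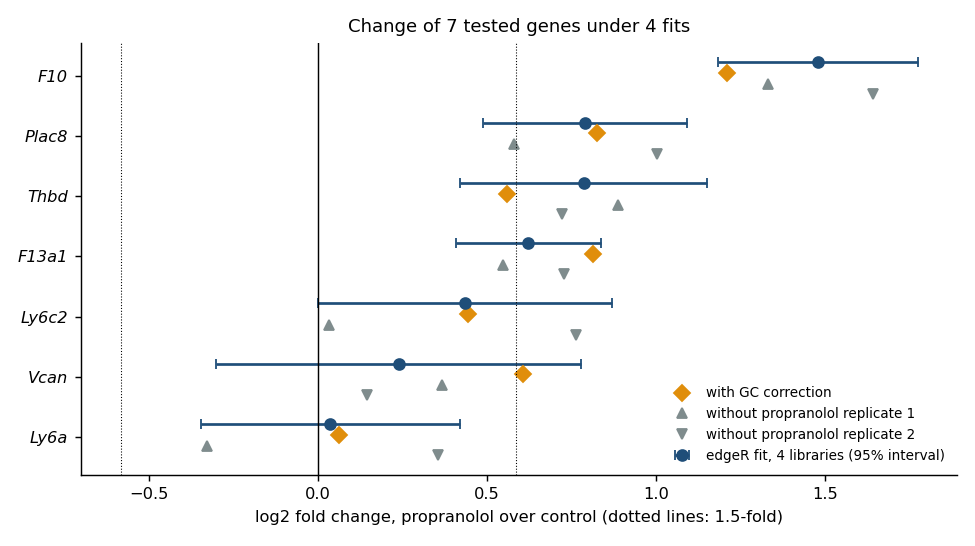
Log2 fold change of propranolol over control (horizontal axis) for the 7 tested genes, from the edgeR fit of 4 libraries with its 95% interval, with the GC correction, and without each propranolol replicate. F10 stays beyond the dotted 1.5-fold line in every fit shown, and the markers for Ly6c2 and Ly6a without replicate 1 lie far from those without replicate 2.

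Per exon length, Ly6a was the most abundant member in controls, at 643 ± 25 TPM (SD, n = 2), followed by F13a1 at 158 ± 1.8 TPM and Plac8 at 146 ± 5.9 TPM. Ly6c2 followed at 45.7 ± 1.6 TPM, then F10 at 30.3 ± 1.7 TPM, Thbd at 10.3 ± 0.73 TPM and Vcan at 8.40 ± 3.6 TPM. Thbd and Vcan did not differ beyond their spread, and Fcnb was last at 0.0501 TPM. After propranolol F10, at 71.4 ± 7.9 TPM (SD, n = 2), lay above Ly6c2, at 51.6 ± 16 TPM, in both libraries. Plac8 (213 ± 35 TPM) and F13a1 (206 ± 9.7 TPM) could not be ordered, since each was higher in 1 library. With the length of the longest transcript in place of all exons, F13a1 had the higher mean in both groups, at 209.5 against 148 TPM for Plac8 in controls and at 271 against 213 TPM after propranolol. Ly6a remained first at 555 ± 160 TPM, and Thbd (15.2 ± 1.9 TPM) lay above Vcan (8.39 ± 1.3 TPM) in both libraries. The 8 genes together took 1042 TPM in controls and 1121 TPM after propranolol, a sum that Ly6a sets to a large part.

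The GC content of a transcript moved with its fold change across all tested genes, with GC-poor transcripts lower and GC-rich ones higher after propranolol. When this trend was removed, 1589 genes (10.8%) were called in place of 4084, 4.34% higher and 6.47% lower. Of the 7 members, 3 were then called, F10 at a log2 fold change of 1.21 (adjusted p = 0.000537), Plac8 at 0.83 (adjusted p = 0.00291) and F13a1 at 0.81 (adjusted p = 0.000729). The correction raised F13a1 and Vcan, whose transcripts hold 45.9% and 43.7% GC, and lowered F10 and Thbd, with 52.0% and 51.4%. Ly6c2 stayed at 0.44 (adjusted p = 0.129) and Vcan came to 0.61 (adjusted p = 0.103).

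**Figure D3:**
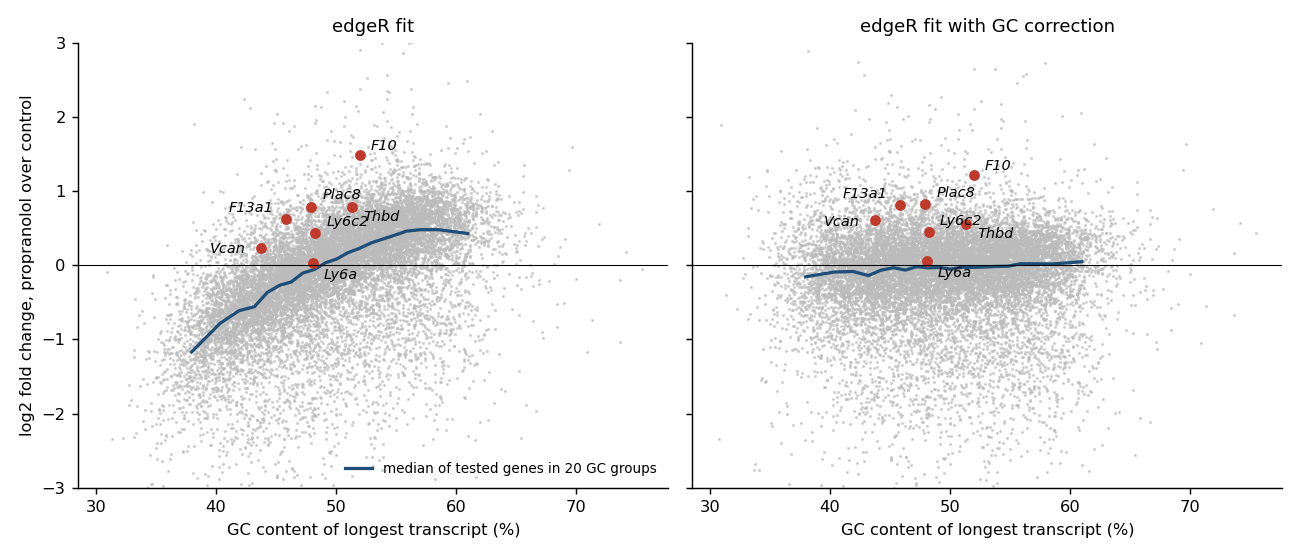
Log2 fold change of propranolol over control (vertical axes) against the GC content of the longest transcript in percent for all tested genes (grey), without (left) and with (right) the GC correction, with the line as the median of 20 groups of genes. The members (red) lie above the line on the left, by the least for Ly6a, and after the correction F10 is the highest of them.

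Other genes of Ly6C-high monocytes, a program that neutrophils share in part, were counted from a list of 18, all of which were tested. Of these, 10 were called higher and 1 lower, against 12.2% higher and 15.6% lower over all tested genes. Their median was 0.64 on the log2 scale. Fn1, the matrix protein fibronectin and the most abundant, had 2284 and 2062 CPM in controls and 4265 and 3700 CPM after propranolol (log2 fold change 0.87). Hp, which encodes the hemoglobin scavenger haptoglobin, had 7.01 and 8.45 CPM in controls and 27.3 and 27.2 CPM after propranolol (1.81). Chil3, a chitinase-like protein of monocytes and alternatively activated macrophages, rose by 1.28 and Ifitm6, an interferon-induced transmembrane protein, by 1.14 on the log2 scale. The other called genes were Cd177 (1.41), Emilin2 (0.98), the calcium-binding S100a4 (0.93) and S100a6 (0.68), the C-type lectin receptor Clec4e (0.64) and the methionine sulfoxide reductase Msrb1 (0.64). Leaving out propranolol replicate 1 took S100a4 (0.53), S100a6 (0.47) and Clec4e (0.52) under 1.5-fold and Cd177 to an adjusted p of 0.0926, and leaving out control replicate 2 took S100a6 (0.46), Clec4e (0.52) and Msrb1 (0.57) under 1.5-fold.

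Within this list 14 genes had positive and 4 negative log2 fold changes, the latter Ms4a4c, Ly6c1 (−0.71), Ccr2 and Gda (−0.26). Ccr2, the receptor through which these monocytes are recruited, had 454 and 397 CPM in controls and 306 and 262 CPM after propranolol. Both propranolol libraries were lower, with a log2 fold change of −0.58 (adjusted p = 0.00249), just short of 1.5-fold. It passed as lower without control replicate 2 (−0.66) and without propranolol replicate 1 (−0.69), and the GC correction turned it to 0.23. Ms4a4c, a membrane protein of the MS4A family, was called lower at −1.09 and was at −0.13 with the GC correction. With that correction 6 of the 18 were called, all higher, against 4.34% higher and 6.47% lower over all tested genes. Chil3, Hp, Ifitm6, S100a4 and Clec4e were among the 6. The calls of Fn1 (0.52), Emilin2 (0.53), S100a6 (0.41), Msrb1 (0.22) and Cd177 (0.996, adjusted p = 0.0788) were lost under the correction. Thus Ly6c2 and Ccr2, which define inflammatory monocytes, were not called higher. Ly6c2 overlapped between the groups, and Ccr2 lay lower before the GC correction but not with it. Whether Ly6c2 differs from the called genes was not tested.

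Of 14 genes of Ly6C-low monocytes, all tested, 1 was called higher and none lower, in the edgeR test and by DESeq2. That is 7.1% of the list called higher, against 12.2% higher and 15.6% lower over all tested genes. At an unadjusted p under 0.05, 4 were higher and 0 lower, and the median log2 fold change was 0.00. The called gene was Nr4a1, the nuclear receptor that this subset depends on, with 134 and 124 CPM in controls and 208 and 272 CPM after propranolol (log2 fold change 0.90, and 0.43, not called, with the GC correction). That correction called Cd36, a scavenger receptor (0.80), and Ear2, a ribonuclease (0.86), higher instead. Cx3cr1, the fractalkine receptor, was the most abundant at 975 and 923 CPM in controls and 1112 and 1209 CPM after propranolol, a difference of 0.29 on the log2 scale. Itgal, an integrin chain of leukocytes, had 433 and 436 CPM in controls and 498 and 496 CPM after propranolol (0.19, not called).

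**Figure D4:**
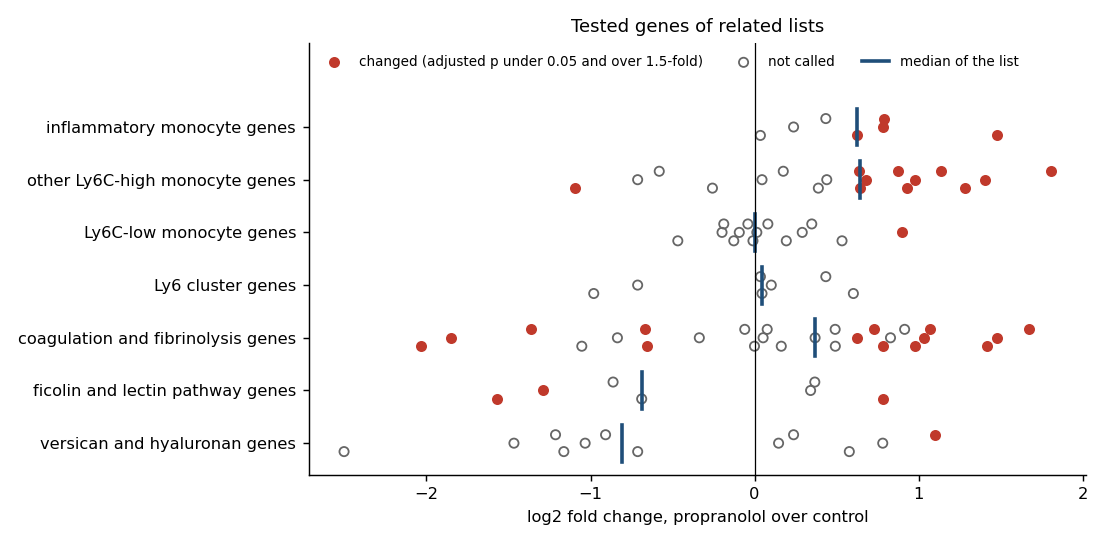
Log2 fold change of propranolol over control (horizontal axis) for the tested genes of 7 lists, with filled points for genes called changed, open points for the others and bars for list medians. The medians are 0.62 for the 7 inflammatory monocyte genes, 0.64 for other Ly6C-high genes and 0.00 for Ly6C-low genes.

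F10, F13a1 and Thbd belong to the coagulation system, of which 41 genes were listed and 27 tested. Of these, 9 were called higher and 5 lower, 51.9% in all. Over all tested genes the call was made for 27.8%, 12.2% higher and 15.6% lower. The median of the 27 was 0.37 on the log2 scale. Beside the 3 members, the higher genes included F7, the protease that starts the extrinsic pathway, with 6.0 and 5.1 CPM in controls and 16.1 and 13.2 CPM after propranolol (1.42). Thbs1, the matrix glycoprotein thrombospondin 1, had 464 and 374 CPM in controls and 1093 and 1572 CPM after propranolol (1.67). Plaur, the urokinase receptor (1.07), Tgm2, a transglutaminase related to F13a1 (1.03), Anxa2, a plasminogen receptor (0.98), and Vkorc1, which recycles the vitamin K needed for factors VII and X (0.73), were also higher.

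The lower genes of the system were the thrombin receptor F2r (−1.36), the protease-activated receptor F2rl1 (−2.03), the plasminogen activator Plat (−1.85) and the anticoagulant proteins Tfpi (−0.66) and Pros1 (−0.67). Thus Thbd, an anticoagulant receptor, was higher where Tfpi and Pros1 were lower, but with the GC correction none of these 3 was called (Tfpi at 0.12 and Pros1 at −0.28). F3, the tissue factor with which F7 acts, was not called, at 7.82 and 6.02 CPM in controls and 6.13 and 4.65 CPM after propranolol. The Tfpi call was lost without control replicate 1 (−0.39, adjusted p = 0.287) and without propranolol replicate 2 (−0.53, adjusted p = 0.115), and that of F2rl1 without control replicate 2 (−1.81, adjusted p = 0.104) and without propranolol replicate 1 (−1.93, adjusted p = 0.0511), at nearly the same fold change. Pros1 fell short of 1.5-fold without control replicate 1 (−0.58) and without propranolol replicate 2 (−0.55), and Plat moved to −1.02 without control replicate 1. No counts were found for Fga, Fgb, Fgg and Plg, the fibrinogen chains and plasminogen that the liver makes. With the GC correction 6 genes of the system were called higher, F10 and F13a1 among them, and 3 lower. Over all tested genes that correction called 4.34% higher and 6.47% lower. Under it Tgm2 (0.57) and Vkorc1 (0.37, adjusted p = 0.0831) lost their calls.

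Fcnb and Vcan belong to systems that were little represented. Of 13 genes of the ficolin and lectin pathway, 7 were tested, 1 was higher and 2 were lower. The median log2 fold change of the 7 was −0.69. Over all tested genes 12.2% were called higher and 15.6% lower. Fcna, the ficolin of macrophages, had 16.2 and 12.5 CPM in controls and 26.5 and 22.4 CPM after propranolol (log2 fold change 0.78, and 0.36, not called, with the GC correction). Colec12, a scavenger receptor, had 18 and 5.58 CPM in controls and 3.93 and 3.86 CPM after propranolol, with control replicate 1 again the highest. Serping1, an inhibitor of the pathway, was called lower at −1.29 on the log2 scale and Colec12 at −1.57. Both calls rest on control replicate 1, without which Colec12 was at −0.46 (adjusted p = 0.344) and Serping1 at −0.51 (adjusted p = 0.46). The Serping1 call was also lost without propranolol replicate 2 (adjusted p = 0.0613), and that of Colec12 with the GC correction (−1.15, adjusted p = 0.093). The complement genes C3 (0.34) and C4b (0.37), the most abundant of the list, were not called. Of 22 genes of versican and hyaluronan turnover, 12 were tested and 1 was called, Hyal2, a hyaluronidase, which was higher by 1.10 on the log2 scale. Of the 12, 7 had negative log2 fold changes, and the median was −0.81. By DESeq2 Adamts1 was also called, as lower (−1.18). Cd44, the hyaluronan receptor, was measured at 324 and 321 CPM in controls and at 369 and 344 CPM after propranolol (0.15, not called).

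The tissue label was checked with the markers of macrophages. All 13 were tested and together reached 34190 and 32407 CPM in controls and 43297 and 42234 CPM after propranolol, with Apoe the most abundant. Adgre1, which encodes F4/80, had 975 and 1008 CPM in controls and 1151 and 1100 CPM after propranolol, and Itgam, which encodes CD11b, had 359 and 352 against 369 and 313 CPM. Neither was called. Csf1r and Trem2 were the 2 macrophage markers called higher, 15.4% of the list against 12.2% of all tested genes. With the GC correction Trem2 (0.73) and Mrc1 (0.73) were called higher and C1qa lower (−0.63), and Csf1r (0.20) was not called. Csf1r was also short of 1.5-fold without propranolol replicate 2 (0.55). The ratio of F10 to Adgre1 in CPM was 0.0249 and 0.0253 in controls and 0.0662 and 0.0569 after propranolol. For Plac8 it was 0.0749 and 0.0665 in controls and 0.119 and 0.0948 after propranolol, and for Ly6c2 0.0402 and 0.0359 in controls and 0.0543 and 0.0349 after propranolol. Of these 3 ratios, that of Ly6c2 overlapped between the groups and the other two did not.

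Neutrophils share part of this program. Of 14 neutrophil markers, 8 were tested and 5 were called higher, where 12.2% of all tested genes were. Ltf was the 1 tested marker with a negative log2 fold change (−0.33, not called). The list summed to 182 and 200 CPM in controls and 358 and 383 CPM after propranolol. Csf3r, the highest of them in CPM, was higher in both propranolol libraries but short of 1.5-fold (0.56, adjusted p = 0.0105). It stood at 0.80 without control replicate 2 and at 0.67 without propranolol replicate 1. Per exon length S100a9 was higher, at 128 TPM in controls and 448 TPM after propranolol, against 104 and 130 TPM for Csf3r. S100a9 (2.04) and S100a8 (1.33), which monocytes also express, Cxcr2 (1.31), Mmp9 (1.09) and Retnlg (0.79) were called. Mmp9 was not called by DESeq2 (1.07, adjusted p = 0.053) or with the GC correction (0.66, adjusted p = 0.0773), and stood at 1.65 without control replicate 1 and 0.70 without control replicate 2. Ly6g, which defines neutrophils, had 2 counts over both controls and 25 after propranolol. Scaled for library size the ratio was 9.66 (counting interval 2.41 to 84.2), and at under 1 CPM it stood far below S100a9. Camp, Ngp, Elane, Mpo and Ceacam10 were near 0 in every library. Platelet markers summed to 176 and 157 CPM in controls and 304 and 275 CPM after propranolol, of which Pf4, which macrophages also express, was 91.0%. Ppbp rose from 1.62 and 1.75 to 6.19 and 10.1 CPM, while Itga2b (−0.52) and Itgb3 (−0.28) had negative log2 fold changes that were not called, and Gp1bb had no counts. The median of the 4 tested platelet markers was 0.29 on the log2 scale. The cells were sorted as CD11b+ F4/80+, and how many neutrophils or platelets passed the sort was not measured here. The part of neutrophil or platelet RNA in the higher levels of F10, F13a1, Plac8 and Thbd was not tested.

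T and NK cell markers summed to 484 and 549 CPM in controls and to 243 and 131 CPM after propranolol, with Il2rb the highest in CPM. Of the 12, 11 were called lower. Over all tested genes 15.6% were called lower and 12.2% higher. Dendritic cell markers summed to 73.5 and 72.9 CPM in controls and 63.0 and 46.6 CPM after propranolol, with Batf3 the most abundant. Of the 10, 3 were called lower, Clec9a (−1.52), Xcr1 (−1.30) and Cd209a (−1.02). With the GC correction 2 were, Clec9a (−1.20) and Flt3 (−1.20), while Xcr1 (adjusted p = 0.12) and Cd209a (adjusted p = 0.139) were not. Without control replicate 2, Itgae moved from −0.65 to −0.78, Kmo from −0.36 to −0.60 and Clec9a from −1.52 to −1.15. B cell and plasma cell markers summed to 161 and 187 against 188 and 218 CPM, of which Ighm, not called, was 87.5%. Of 5 tested, Igkc (2.33) and Cd79b (0.78) were called higher and Ms4a1 (−2.67) lower. By DESeq2, and also with the GC correction, 1 of the 5 was called higher and none lower. Igkc was at 0.81 without propranolol replicate 2, and Ms4a1 was not called when any library was left out. Endothelial markers summed to 55.6 and 50.2 against 66.1 and 65.9 CPM, mostly Pecam1. Markers of eosinophils and basophils stayed under 10 CPM in sum, with Epx, Fcer1a and Mcpt8 at 0. Siglecf, the highest of these markers in CPM, had 2.90 and 3.07 CPM in controls and 2.89 and 4.06 CPM after propranolol (0.20, not called). Propranolol replicate 2, the lowest library in Ly6a, also had the fewest counts of T and NK cell markers per library size, whereas replicate 1, the highest in Ly6a, also lay below both controls in these markers. The part of these cells in the Ly6a values was not tested.

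**Figure D5:**
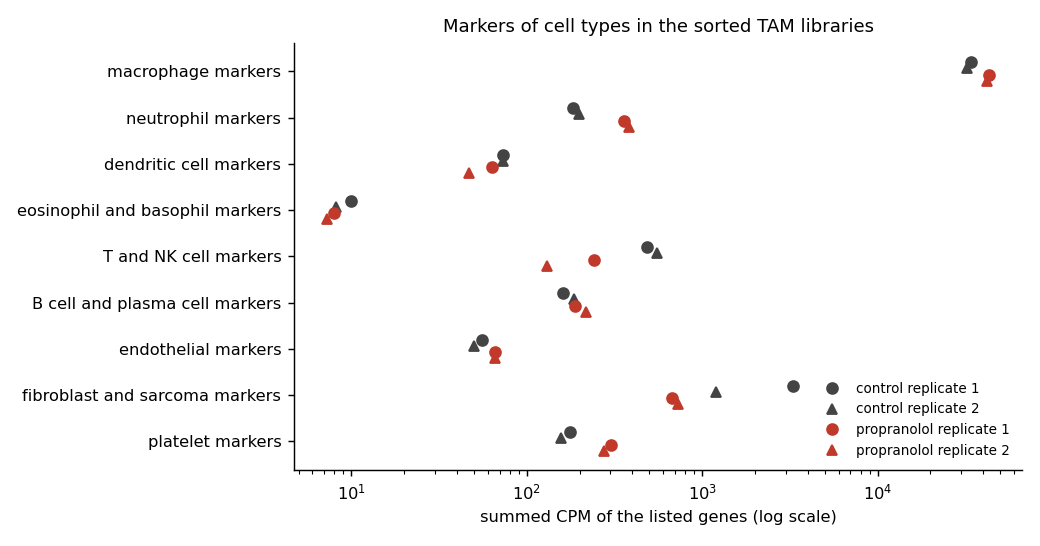
Summed CPM of the marker genes of 9 cell types (horizontal axis, log scale) in each of the 4 libraries. Macrophage markers reach at least 32407 CPM in every library, neutrophil and platelet markers are higher in both propranolol libraries, and control replicate 1 is the highest in fibroblast and sarcoma markers.

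The genes nearest in pattern were sought among 5604 tested genes of at least 5 in mean log2 CPM, by the Euclidean distance between log2 CPM values centred on each gene over the 4 libraries. Nearest to Ly6c2 were S100a11 (distance 0.141), Ass1 (0.208) and Itgb1bp1 (0.212). S100a11, a calcium-binding protein, had 57.1 and 50.6 CPM in controls and 80.3 and 55.1 CPM after propranolol, so it too was high in propranolol replicate 1 alone. Nearest to Plac8 were Pnp (0.0856), Sem1 (0.109) and Capg (0.109). Capg, an actin-capping protein of macrophages, had 486 and 493 CPM in controls and 944 and 745 CPM after propranolol (log2 fold change 0.79, adjusted p = 0.00066). With 4 libraries, such likeness is a description only.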

How the data were processed

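RNA sequencing of FACS-sorted TAMs was analysed in 4 libraries (2 control, 2 propranolol). The authors deposited raw fragment counts per gene, which are whole numbers. Per the methods and the submitters' processing notes, the authors aligned reads to mm10 with STAR 2.7.1a, used SAMtools 1.9 to drop alignments of low mapping quality, and summed fragments over GENCODE exons with featureCounts 1.6.4. The annotation release is not given in the sources used here. The counting parameters listed in the methods hold no strand option, so a gene and an antisense partner cannot be told apart. Of 54146 genes listed, 25803 have no counts, and 54079 matched GENCODE M21 (GRCm38), which gave symbols, positions, exon lengths and GC content.

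Groups were compared with the edgeR 4.0.16 quasi-likelihood test (R 4.3.3) with TMM factors (1.076 and 1.092 for control, 0.914 and 0.931 for propranolol), filterByExpr at a minimum count of 10 and Benjamini-Hochberg adjustment over all tested genes. Standard errors follow from the coefficient and the F statistic. A gene of 2 against 2 libraries cannot reach an exact permutation p under 0.333, so none is given. Depth limits the precision of low genes, and intervals of counts cover counting error only.

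The members and lists were chosen with earlier results of these data known. Named are the 8 members, and from each related list the called genes and at least the 2 of highest mean CPM. From each list of cell type markers at least the gene of highest mean CPM is named. The 3 genes nearest in pattern to Ly6c2 and to Plac8 are named too. Ccr2, F3, Ly6g, Mpo and other uncalled genes of the lists were named for their role, after their values were seen. Promoter sequences are from RefSeq (GRCm38.p6). Alternatives were DESeq2 1.42.0, other scaling factors, other filters and thresholds, glmTreat, a replicate block, a correction for GC content (per library, a spline of 5 degrees of freedom entered as an offset), leaving out each library and, for TPM, the longest transcript as length.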

Additional observations from a re-analysis of the deposited data

How the results depend on the processing

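F10 was called higher in all 12 alternative fits at the main thresholds, Plac8 in 11, F13a1 and Thbd in 10, Vcan in 2, Ly6c2 in 1 and Ly6a in none. These 12 leave out glmTreat and the other thresholds, and include the fits that keep only 1 library in a group. The count of called members was 4 with DESeq2 size factors, no filter, the stricter filter, the DESeq2 Wald test and the adjusted p alone, 3 with upper-quartile factors and 3 with the GC correction. It was 1 with glmTreat against 1.5-fold (F10) and 0 with a log2 fold change above 1.5, both stricter by construction, and ranged from 2 to 5 when 1 library was left out. The 2 came without propranolol replicate 1, which leaves F10 and Thbd past both thresholds. Over all genes, 4084 were called, against 1589 with the GC correction, 1093 with glmTreat, 728 at a log2 fold change above 1.5 and 6204 by the adjusted p alone. Leaving out a library gave 3615 to 4329. Leaving out a library gave −0.15 to 0.82 for Vcan and −0.33 to 0.35 for Ly6a on the log2 scale. Directions turned for Vcan without control replicate 2 (−0.15) and for Ly6a with upper-quartile factors (−0.027) and without propranolol replicate 1 (−0.33), and the cause was not tested. The summed TPM of the members was 1042 in controls and 1065 with the length of the longest transcript, a move larger than the SD of the control libraries but smaller than the gap between them, with a range of 1029 to 1055 over single control libraries. After propranolol it was 1121, with a range of 961 to 1281 over single libraries.

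Same-numbered libraries deviated together only weakly (correlation 0.169 over 14688 genes), and 2 pairs do not show that the numbers pair the samples. With the replicate number as a block, 4362 genes and 4 members were called, and Ly6a came to −0.0018. The block with the GC correction called 2035 genes and 4 members, and brought Vcan to 0.64 (adjusted p = 0.00986) in place of Thbd (0.57).

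Counts of the lists moved by more than 1.5 times in several fits. The other Ly6C-high genes went from 11 called to 6 with the GC correction, and the coagulation genes from 14 to 9. Over all tested genes the share called went from 27.8% to 10.8% with that correction. The Ly6C-low genes ranged from 1 to 3, the ficolin and lectin pathway genes from 1 to 5 and the versican and hyaluronan genes from 1 to 5, and the Ly6 cluster had 1 called gene when either propranolol library was left out. Genes at few counts, such as Fcnb and Ly6c1, are limited by depth.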
